A study of Homo sapiens with 30 samples.

Results

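NEAT1 and MALAT1, a pair of long noncoding RNAs that stay in the nucleus, were followed with 5 genes of paraspeckle proteins, SFPQ, NONO, PSPC1, RBM14 and HNRNPK, in RNA-seq libraries of SW1783 cells, a human astrocytoma line. These 7 genes were chosen by name from the 60675 genes of the count table, because the level of NEAT1 had been seen to be highest at 20 µg/mL in these data. The level of NEAT1 and MALAT1 over doses and against vehicle is therefore given as a description with no test. The protein genes were tested in every comparison, and NEAT1 and MALAT1 only between formulas at the same dose. All 7 passed the filter on low counts, as did 17839 genes in all.

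SW1783 cells were treated for 24 h with 1 of 5 herbal extracts at 20, 100 or 500 µg/mL, or with vehicle alone. Vehicle was 0.1% DMSO by the sample labels, where the design text of the series gives 2%. The labels of the treated libraries give no DMSO share. Palmul-tang and Sibjeondaebo-tang, both extracted with water, had 3 libraries per dose. Samul-tang, also a water extract, and the ethanol extracts Poria Cocos and Atractylodis Rhizoma had 1 library per dose, and vehicle had 3, which makes 30 libraries in 16 groups. All groups share 1 cell line, and nothing in the labels says whether cultures were grown separately for each library. Therefore p-values measure the spread between these libraries. Each library held between 22.57 and 37.82 M counts, and genes of the mitochondrial chromosome took a mean of 6.56% to 7.37% of them in the 16 groups. Of the 7 markers of astrocytes that were checked, SLC1A3, SOX9 and GLUL were present, while GFAP, AQP4, S100B and ALDH1L1 had at most 4 counts in any library. VIM, CD44, FN1 and TNC, markers of mesenchymal glioma cells, were abundant, and NES, the other marker on that list, had a median of 6.06 CPM. Of 4 neuron markers, TUBB3, SYT1 and SNAP25 were present, with medians of 94.7, 37.7 and 22.7 CPM, and RBFOX3 had at most 13 counts. Of 4 epithelial markers, KRT18 and KRT8 were present, with medians of 153 and 15.7 CPM, and EPCAM and CDH1 had at most 10 counts. Summed CPM of the 7 astrocyte markers was 128 to 152 in treated and 155 to 160 in vehicle libraries. That of the 4 epithelial markers was 108 to 191 in treated and 200 to 206 in vehicle libraries. The 5 mesenchymal markers summed to 13500 to 14900 CPM in treated and 14800 to 15300 in vehicle libraries, and the 4 neuron markers to 128 to 176 in treated and 164 to 173 in vehicle libraries. Of 4 leukocyte markers, CD68 and PTPRC had medians of 157 and 10.8 CPM, and CD3E and AIF1 had 2 counts or fewer. Together these 4 summed to 137 to 185 CPM in treated and 181 to 193 in vehicle libraries. The part of these shifts in the differences from vehicle was not tested. The replicate 3 library of Sibjeondaebo-tang at 500 µg/mL stood apart from its group, with a chi-square per gene of 8.145 and 7.421 against the other libraries, beside 2.636 between those. The sample codes of all vehicle libraries belong to a set that holds no treated library. The effect of an extract and a difference in handling or solvent therefore cannot be told apart in any comparison with vehicle. Samul-tang, the formulas and the ethanol extracts also share no set, so the same holds for comparisons between these.

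Paraspeckles are nuclear bodies that form on NEAT1 as a scaffold. The gene gives a short polyadenylated RNA and a long RNA that starts at the same promoter, and the long RNA is the one that holds the body together. SFPQ and NONO bind along it and are needed for its stability, PSPC1 is their close relative, RBM14 helps the body to assemble through its prion-like domain, and HNRNPK favours the long form by opposing the 3′ end processing of the short one. MALAT1, the neighbour of NEAT1, lies in nuclear speckles, which hold splicing factors. The long form of NEAT1 and MALAT1 have no poly(A) tail: a tRNA-like element is cut off at the 3′ end, and the new end folds into a triple helix of a U-rich and an A-rich stretch. In stressed or inflamed cells NEAT1 is known to be induced, and it has been reported to hold SFPQ in paraspeckles.

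NEAT1 (ENSG00000245532, lincRNA) lies at chr11:65422774-65445540 on the plus strand in GRCh38, and MALAT1 (ENSG00000251562, lincRNA) at chr11:65497688-65506516 on the same strand, 52.1 kb further on. GENCODE release 29 lists 8 NEAT1 transcripts. The longest has 22743 bases, and 7 short forms have 512 to 3524 bases and end within 3740 bases of the gene's start, inside the span of the long form. Counts were given per gene, so short and long forms were not separated. The exons also hold 100 bases of MIR612, 120 of RF01955, 105 of RF01956 and 159 of RF01957, all on the same strand. The 3′ ends are shown because they set the forms apart. In the end of a short form (chr11:65426414-65426513), capitals mark AATAAA, the polyadenylation signal, 11 bases before the annotated end. In the end of the long form (chr11:65445441-65445540) and in the last bases of MALAT1 before its tRNA-like element (chr11:65506017-65506116), capitals mark runs of at least 4 T or 4 A. All are on the plus strand of GRCh38 and written as DNA.
NEAT1 short end: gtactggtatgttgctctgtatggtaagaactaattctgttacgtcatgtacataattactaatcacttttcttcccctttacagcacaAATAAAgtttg
NEAT1 long end: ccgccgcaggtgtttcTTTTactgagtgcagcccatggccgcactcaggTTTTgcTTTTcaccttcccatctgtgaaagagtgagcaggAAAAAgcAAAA
MALAT1 long end: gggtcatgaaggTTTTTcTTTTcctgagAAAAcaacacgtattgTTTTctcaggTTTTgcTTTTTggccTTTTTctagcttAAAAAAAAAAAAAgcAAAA
The ends of the long form of NEAT1 and of MALAT1 share a run of 16 bases, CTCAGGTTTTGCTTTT, which starts 57 bases before the end of the NEAT1 window and 52 before that of the MALAT1 window. Right after them the annotation places tRNA-like elements of 58 and 57 bases. The end of the short form carries the polyadenylation signal in place of such a run.

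NEAT1 was at its highest at 20 µg/mL in each of the 5 extracts, and at every dose of the formulas it lay above vehicle. In CPM, counts scaled to a common depth with TMM factors, Palmul-tang libraries held 540.7, 567.1 and 545.0 CPM at 20 µg/mL, 482.0, 485.2 and 551.3 at 100, and 485.1, 463.5 and 496.7 at 500. Sibjeondaebo-tang libraries held 599.8, 569.4 and 621.9 CPM at 20 µg/mL, 521.3, 516.3 and 576.5 at 100, and 462.9, 445.0 and 471.6 at 500. The vehicle libraries held 284.0, 301.4 and 307.4 CPM. All 18 libraries of the formulas lay above the highest vehicle library. In RNA from whole cultures, more RNA per cell and more cells that hold it cannot be told apart. In both formulas the libraries at 500 µg/mL lay below all those at 20, while 1 library at 100 overlapped those at 20 in each formula. The share of all genes tested with such separations, from vehicle or between doses, was not counted. They are therefore not read as a trait of NEAT1.

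The other extracts, with single libraries, also had less NEAT1 at 100 than at 20 µg/mL, and spread more widely at 500. Samul-tang had 730.9 CPM of NEAT1 at 20 µg/mL, 547.6 at 100 and 428.4 at 500. Poria Cocos had 489.6 CPM at 20 µg/mL, 435.5 at 100 and 306.2 at 500. Atractylodis Rhizoma had 599.1 CPM at 20 µg/mL, 524.7 at 100 and 554.3 at 500. The Poria Cocos library at 500 µg/mL, at 306.2 CPM, was the only treated library of 27 within the range of vehicle. Atractylodis Rhizoma was the only extract with a higher level at 500 than at 100 µg/mL.

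**Figure D1:**
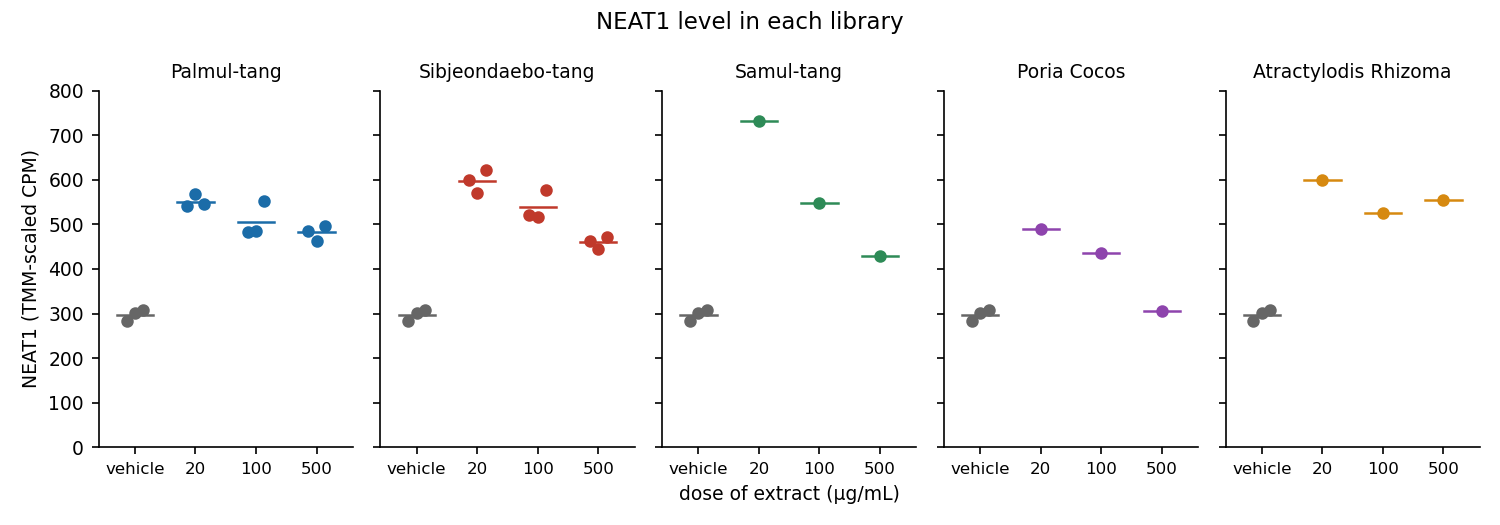
Level of NEAT1 (vertical axis, TMM-scaled CPM) in each library against the dose of extract (µg/mL), with 1 panel per extract and the same 3 vehicle libraries in grey in each; points are libraries and horizontal lines group means. The mean at 20 µg/mL is the highest of each panel, up to 730.9 CPM in Samul-tang, and the Poria Cocos library at 500, at 306.2 CPM, falls in the range of vehicle.

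Expressed as a log2 difference, NEAT1 at 500 against 20 µg/mL stood at -0.77 in Samul-tang, -0.68 in Poria Cocos, -0.38 in Sibjeondaebo-tang, -0.19 in Palmul-tang and -0.11 in Atractylodis Rhizoma. Within the 3 sets of sample codes that hold a full dose series of both formulas, the log2 difference ran from -0.40 to -0.13. Its sign follows from the separation of these libraries given above, so it adds no support. The last digit of the code follows the dose in every set. At 20 µg/mL against vehicle the fitted log2 fold change was 0.89 in Palmul-tang and 1.00 in Sibjeondaebo-tang, which is 1.85-fold and 2.01-fold. At 500 µg/mL against vehicle it was 0.695 in Palmul-tang and 0.628 in Sibjeondaebo-tang, or 0.613 without the Sibjeondaebo-tang library that stands apart. Among 10308 tested genes whose log2 CPM averaged 3 or more, 4 had a larger fold change than NEAT1 in Palmul-tang at 20 µg/mL against vehicle, and 2 in Sibjeondaebo-tang. At 500 µg/mL, 28 genes in Palmul-tang and 47 in Sibjeondaebo-tang had a larger one. NEAT1 was chosen for its level in these libraries, so these ranks are a description and no test.

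Over the 16 groups the order of NEAT1 levels began with Samul-tang at 20 µg/mL, 730.9 CPM, and ended with Poria Cocos at 500, 306.2 CPM, and vehicle, 297.6 ± 12.2 CPM (SD, n = 3). Next to the top stood Atractylodis Rhizoma at 20 µg/mL, 599.1 CPM, and Sibjeondaebo-tang at 20, 597.0 ± 26.4 CPM (SD, n = 3), which overlap. Atractylodis Rhizoma at 500 µg/mL had 554.3 CPM. Palmul-tang at 20 µg/mL followed with 550.9 ± 14.2 CPM (SD, n = 3), within the range of Sibjeondaebo-tang at 100, 538.0 ± 33.4 CPM (SD, n = 3). Palmul-tang at 100 µg/mL had 506.2 ± 39.1 CPM, Palmul-tang at 500 had 481.8 ± 16.8 and Sibjeondaebo-tang at 500 had 459.8 ± 13.6 (SD, n = 3 each), and each of these overlaps the one before it. Poria Cocos at 100 µg/mL, 435.5 CPM, and Samul-tang at 500, 428.4 CPM, lay below all libraries of the formulas and above vehicle. In this order extract and handling cannot be told apart between Samul-tang, the formulas and the ethanol extracts, which share no set of sample codes.

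MALAT1 stood less far above vehicle than NEAT1, and its doses overlapped. Palmul-tang libraries held 1079.2, 1246.9 and 1053.5 CPM at 20 µg/mL, 1080.2, 959.0 and 1058.1 at 100, and 1057.5, 952.9 and 945.6 at 500. Sibjeondaebo-tang libraries held 1146.6, 1091.7 and 1073.5 CPM at 20 µg/mL, 1120.9, 1110.4 and 1106.2 at 100, and 1126.5, 1097.5 and 884.0 at 500. Vehicle libraries held 884.9, 891.5 and 928.6 CPM. Of the treated libraries, 26 of 27 lay above all vehicle libraries. The exception, at 884.0 CPM, is the Sibjeondaebo-tang library that stands apart from its group. How many of all genes tested lie above vehicle in this way was not counted. In the extracts with 1 library a dose, MALAT1 ran from 997.3 CPM in Poria Cocos at 500 µg/mL to 1180.8 in Samul-tang at 20. The log2 difference of MALAT1 at 500 against 20 µg/mL was -0.19 in Palmul-tang, -0.10 in Sibjeondaebo-tang, -0.18 in Samul-tang, -0.17 in Poria Cocos and 0.04 in Atractylodis Rhizoma. Leaving out 1 library of Sibjeondaebo-tang at a time moved its fitted value between -0.16 and 0.01, the last without the library at 884.0 CPM. Of the annotated exons of MALAT1, 396 bases overlap AP000769.2 on the opposite strand, and since the strand setting of the counting is not given in the sources used here, reads of the pair may not be told apart there.

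The ratio of NEAT1 to MALAT1 counts, which does not depend on library scaling, is described over doses without a test. It averaged 0.491 ± 0.032 at 20 µg/mL, 0.491 ± 0.040 at 100 and 0.490 ± 0.033 at 500 in Palmul-tang, means that differ by less than their SD (SD, n = 3 each). In Sibjeondaebo-tang it averaged 0.541 ± 0.033 at 20 µg/mL, 0.484 ± 0.032 at 100 and 0.450 ± 0.072 at 500 (SD, n = 3 each). Its libraries at 500 µg/mL had 0.411, 0.405 and 0.533, the last in the library that stands apart from its group. That value lies within the range at 20 µg/mL, 0.522 to 0.579. The other extracts had 1 library a dose and thus no measure of spread. Samul-tang had 0.619 at 20 µg/mL, 0.485 at 100 and 0.411 at 500. Poria Cocos had 0.437 at 20 µg/mL, 0.418 at 100 and 0.307 at 500, the last under the vehicle libraries, at 0.330 ± 0.009 (SD, n = 3). Atractylodis Rhizoma had 0.530 at 20 µg/mL, 0.457 at 100 and 0.477 at 500. The share of counts in other long noncoding RNAs had group means of 0.893% to 0.954% in treated groups and 0.865% ± 0.006 in vehicle (SD, n = 3), and its part in the level of NEAT1 and MALAT1 was not tested.

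Between the formulas at the same dose, NEAT1 and MALAT1 could be tested, since the choice of genes did not rest on that comparison. At 20 µg/mL NEAT1 had a log2 fold change of 0.12 ± 0.048 (SE) in Sibjeondaebo-tang over Palmul-tang, with a 95% interval of 0.02 to 0.22 and an edgeR adjusted p of 0.999. The fold change was 0.09 at 100 µg/mL (interval -0.01 to 0.19, edgeR adjusted p = 1) and -0.07 at 500 (interval -0.17 to 0.03, edgeR adjusted p = 0.98). MALAT1 had intervals of -0.21 to 0.15 at 20 µg/mL, -0.07 to 0.29 at 100 and -0.11 to 0.25 at 500. None of the 7 genes was called at any dose. The edgeR test called 0% of all genes tested at each dose, and 0% for the difference between the formulas in the change from 20 to 500 µg/mL, which was tested for the 5 protein genes and not for NEAT1 and MALAT1. At an unadjusted p under 0.05 it had 629 genes at 20 µg/mL, 478 at 100, 863 at 500 and 716 for the difference. The Wald test of DESeq2 called 2 genes at 500 µg/mL and 0 in the other comparisons.

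SFPQ, NONO and RBM14 were lower in all 27 treated libraries than in any vehicle library, and fell in both formulas at 20 and at 500 µg/mL, HNRNPK fell in part of these comparisons, and PSPC1 passed the test in none. RBM14 (ENSG00000239306, chr11:66616582-66627347, plus strand) changed most, NONO (ENSG00000147140, chrX:71283192-71301168, plus strand) and SFPQ (ENSG00000116560, chr1:35176378-35193148, minus strand) less. These comparisons share the same 3 vehicle libraries. The share of all genes tested that lay below vehicle in every treated library was not counted. The separation is therefore not read as a trait of these genes. Of all genes tested, edgeR called 13.3% lower in Palmul-tang at 20 µg/mL against vehicle, where 3 of the 5 protein genes fell, and 13.3% lower in Sibjeondaebo-tang at 20, where 4 of 5 fell. At 500 µg/mL against vehicle it called 14.9% lower in Palmul-tang, with 4 of 5, and 13.3% lower in Sibjeondaebo-tang, with 3 of 5. In either direction it called 23.8% at 20 µg/mL in each formula, 27.8% at 500 in Palmul-tang and 25.1% at 500 in Sibjeondaebo-tang. The median log2 fold change of the 5 genes was -0.14 in Palmul-tang and -0.17 in Sibjeondaebo-tang at 20 µg/mL, beside 0.006 and 0.004 over all genes tested.

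The core pair of paraspeckle proteins, SFPQ and NONO, which bind RNA and DNA as a dimer, lay below vehicle in all treated libraries. NONO had 734.1, 723.3 and 701.1 CPM in Palmul-tang and 720.1, 708.5 and 721.6 CPM in Sibjeondaebo-tang at 20 µg/mL, against 830.5, 778.9 and 817.9 CPM in vehicle. The groups did not overlap, and the share of all genes tested with such a gap was not counted. Its log2 fold change at 20 µg/mL against vehicle was -0.17 ± 0.031 (SE) in Palmul-tang (edgeR adjusted p = 9.4e-05) and -0.17 ± 0.031 in Sibjeondaebo-tang (edgeR adjusted p = 5.88e-05). SFPQ had 338.8, 332.5 and 324.5 CPM in Palmul-tang and 343.8, 308.6 and 322.2 CPM in Sibjeondaebo-tang at 20 µg/mL, against 370.3, 360.0 and 363.1 CPM in vehicle. Here too no treated library reached the lowest vehicle library. Its log2 fold change was -0.14 ± 0.036 in Palmul-tang (edgeR adjusted p = 0.0054) and -0.17 ± 0.036 in Sibjeondaebo-tang (edgeR adjusted p = 0.000723). At 500 µg/mL against vehicle NONO stood at -0.22 in Palmul-tang (edgeR adjusted p = 1.29e-06) and -0.16 in Sibjeondaebo-tang (edgeR adjusted p = 0.000114). SFPQ stood there at -0.19 (edgeR adjusted p = 0.000111) in Palmul-tang and at -0.20 in Sibjeondaebo-tang (edgeR adjusted p = 8.13e-05).

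RBM14, the assembly factor, had 66.7, 66.3 and 65.8 CPM in Palmul-tang at 20 µg/mL, and 61.0, 59.5 and 62.5 CPM at 500. It had 67.2, 63.9 and 66.0 CPM in Sibjeondaebo-tang at 20 µg/mL, and 63.4, 61.8 and 68.4 CPM at 500. The vehicle libraries held 81.0, 76.8 and 81.8 CPM, all above every treated library. Its log2 fold change against vehicle was -0.27 in Palmul-tang and -0.28 in Sibjeondaebo-tang at 20 µg/mL (edgeR adjusted p = 1.65e-05 in Palmul-tang and 7.46e-06 in Sibjeondaebo-tang). At 500 µg/mL it was -0.39 in Palmul-tang (edgeR adjusted p = 1.86e-08) and -0.31 in Sibjeondaebo-tang (edgeR adjusted p = 1.31e-06). Of its annotated exons, 432 bases are shared with the readthrough gene RBM14-RBM4 on the same strand, so reads of these genes can be split between them. Without the Sibjeondaebo-tang library that stands apart, RBM14, NONO and SFPQ were still called at 500 µg/mL against vehicle in that formula, at -0.35, -0.16 and -0.17.

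HNRNPK (ENSG00000165119, chr9:83968083-83980616, minus strand), a poly(C)-binding protein, had a mean of 586.1 ± 9.26 CPM in Palmul-tang and 576.3 ± 7.19 in Sibjeondaebo-tang at 20 µg/mL, against 616.1 ± 16.6 in vehicle (SD, n = 3 each). It fell by 0.10 on the log2 scale in Sibjeondaebo-tang at 20 µg/mL (edgeR adjusted p = 0.0222) and by 0.13 in Palmul-tang at 500 (edgeR adjusted p = 0.00165). It missed the threshold at 20 µg/mL in Palmul-tang (edgeR adjusted p = 0.0957) and at 500 in Sibjeondaebo-tang (edgeR adjusted p = 0.102). The call in Sibjeondaebo-tang at 20 µg/mL was lost without its replicate 1 (edgeR adjusted p = 0.0565) or 3 (0.0889), without vehicle replicate 1 (0.0649) or 2 (0.119), with upper quartile scaling (0.0524) and with no filter on low counts (0.118). PSPC1 (ENSG00000121390, chr13:19674752-19783019, minus strand) had 32.4 ± 0.503 CPM in Palmul-tang and 31.2 ± 0.850 in Sibjeondaebo-tang at 20 µg/mL, against 31.3 ± 0.950 in vehicle (SD, n = 3 each). Its intervals at 20 µg/mL against vehicle, -0.05 to 0.15 in Palmul-tang and -0.10 to 0.10 in Sibjeondaebo-tang on the log2 scale, hold 0. Over all 27 treated libraries 12 lay below and 2 above the range of vehicle for PSPC1, and 20 lay below it for HNRNPK. Such counts were not made for all genes tested. Of the annotated exons of HNRNPK, 309 bases overlap AL354733.3 on the opposite strand and 110 bases MIR7-1 on the same strand. In PSPC1, 36 bases overlap PSPC1-AS2 on the opposite strand.

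**Figure D2:**
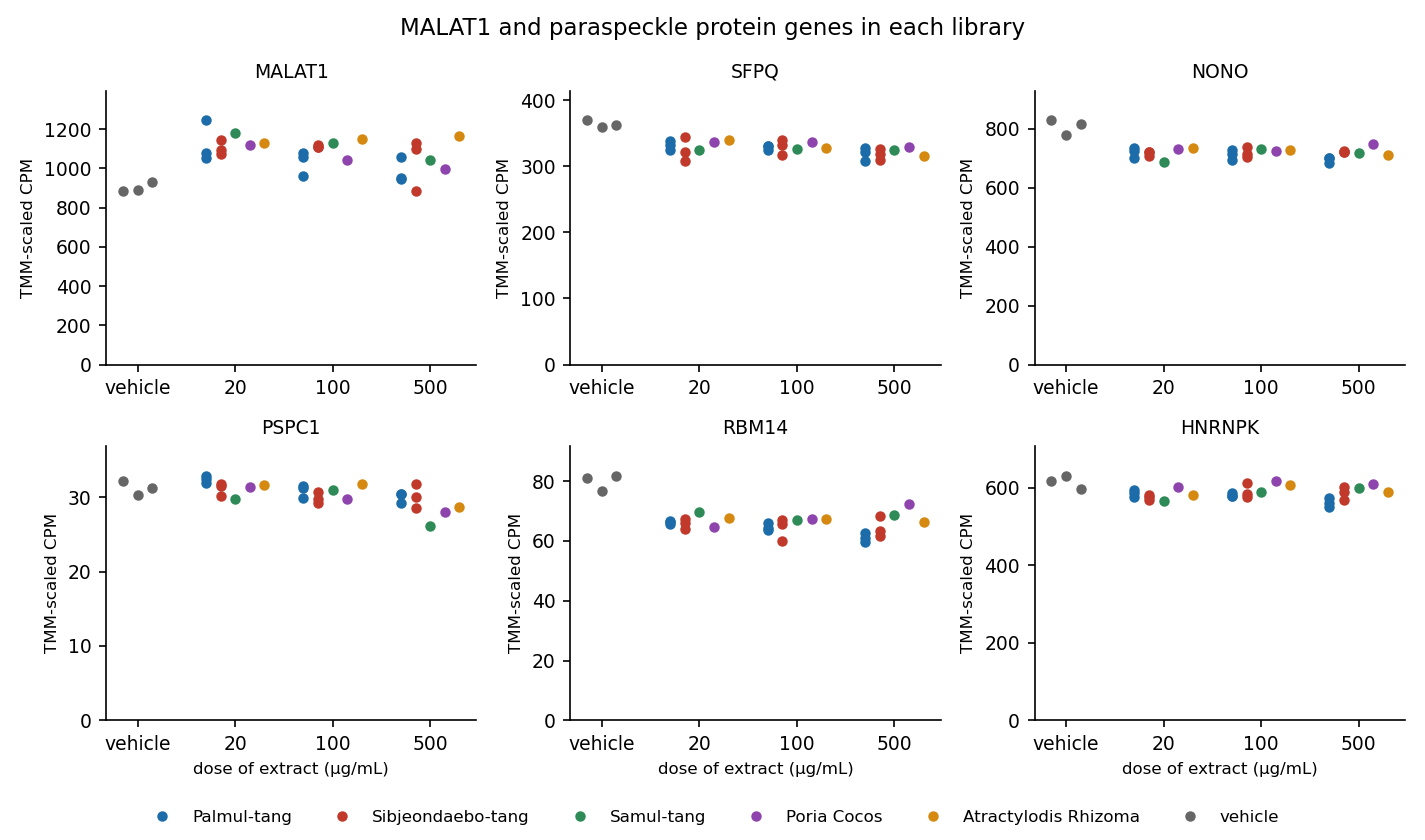
Levels of MALAT1 and of the 5 protein genes (vertical axes, TMM-scaled CPM, from 0) in each library against the dose of extract (µg/mL), with 1 colour per extract and vehicle in grey. MALAT1 lies above vehicle in 26 of 27 treated libraries, and SFPQ, NONO and RBM14 below all vehicle libraries in 27 of 27. The share of all genes tested with such separation was not counted.

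**Figure D3:**
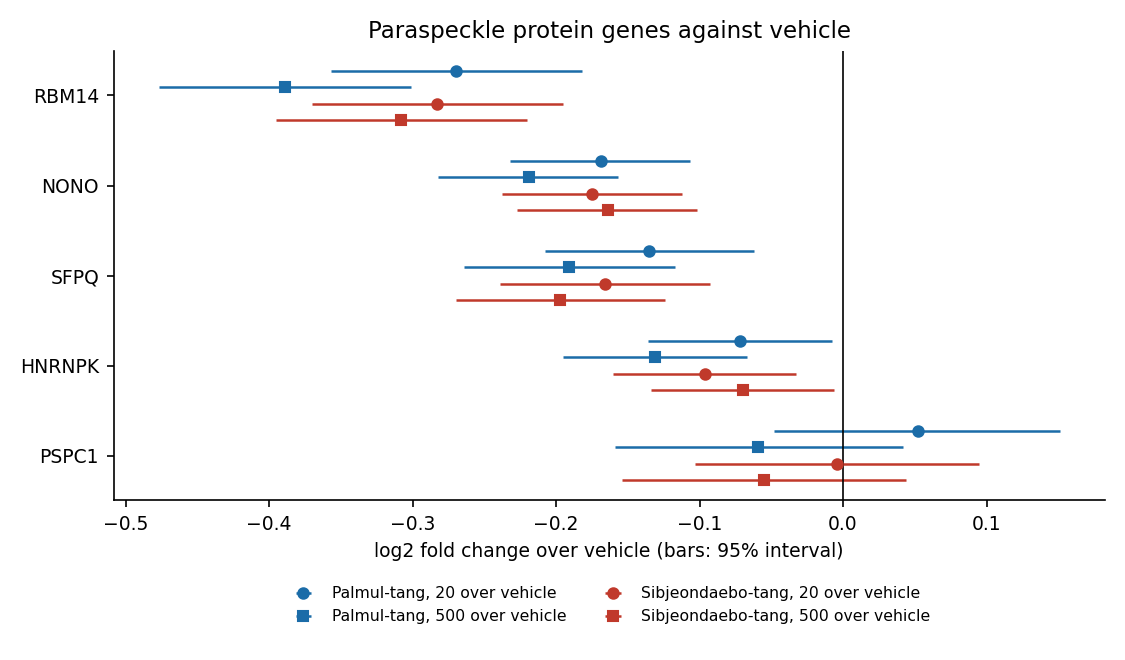
Log2 fold change over vehicle (horizontal axis, with 95% intervals as bars) of the protein genes in both formulas, at 20 µg/mL (circles) and 500 µg/mL (squares). RBM14 lies furthest to the left, at -0.39 in Palmul-tang at 500, and the intervals of PSPC1 hold 0.

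The promoters of RBM14 and NONO are shown because both genes lay below vehicle in every treated library and both carry 3 CCAAT boxes. Since they were picked on both traits, they cannot show a link between the traits, which was not tested. RefSeq promoters on GRCh38.p14 were matched for 5 of the 7 genes. The 250 bases before the start in that table are given in the direction of the gene, with CCAAT and its reverse complement ATTGG in capitals. RBM14 is at chr11:66616380-66616629 and NONO at chrX:71283385-71283634, both on the plus strand. GENCODE release 29 starts both genes earlier, so the window of NONO lies inside the gene as given there, and that of RBM14 runs past its start.
RBM14 promoter: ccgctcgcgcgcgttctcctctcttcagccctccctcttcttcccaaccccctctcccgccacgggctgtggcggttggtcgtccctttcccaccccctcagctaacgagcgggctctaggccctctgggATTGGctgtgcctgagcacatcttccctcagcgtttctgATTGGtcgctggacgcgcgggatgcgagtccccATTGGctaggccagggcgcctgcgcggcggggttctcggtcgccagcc
NONO promoter: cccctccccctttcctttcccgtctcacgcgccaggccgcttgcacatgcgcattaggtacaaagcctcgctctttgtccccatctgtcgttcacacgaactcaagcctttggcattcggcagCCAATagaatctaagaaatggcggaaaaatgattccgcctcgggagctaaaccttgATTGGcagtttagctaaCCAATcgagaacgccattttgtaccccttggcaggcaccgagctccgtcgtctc
Of 34943 promoters of this length, 32.0% held at least 1 CCAAT box on either strand, and a match describes these letters, not a bound factor. The share of promoters with 3 was not counted. A promoter of HNRNPK held 2, its other promoter none, and PSPC1 and MALAT1 had none in any listed promoter. MALAT1 had 5 GC boxes, GGGCGG on either strand, in 1 of its promoters, a motif in 42.5% of all promoters. The NEAT1 and SFPQ promoters were not used here.

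No protein gene passed the test between doses in the fit over all libraries. At 500 against 20 µg/mL, 0 of 5 passed the edgeR test in either formula, beside 5.3% of all genes tested in Palmul-tang and 6.24% in Sibjeondaebo-tang. At 100 against 20 µg/mL 0 of 5 passed, beside 0.163% in Palmul-tang, of which 0.0168% were lower, and 0.207% in Sibjeondaebo-tang, of which 0.0224% were lower, all as shares of the genes tested. The Wald test of DESeq2 also called 0 of 5 in these comparisons. The unadjusted p at 500 against 20 µg/mL was under 0.05 for 2 of 5 in Palmul-tang, RBM14 (0.0098) and PSPC1 (0.0295), and for 0 of 5 in Sibjeondaebo-tang. RBM14 had a log2 fold change of -0.12 there with an interval of -0.21 to -0.03 and an edgeR adjusted p of 0.121, which became 0.0319 in a fit on the compared libraries alone. In Sibjeondaebo-tang the interval of RBM14 was -0.11 to 0.06, that of NONO -0.05 to 0.07 and that of SFPQ -0.10 to 0.04.

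Per kilobase of all annotated exons of a gene, vehicle levels ran from 153 CPM for NONO and 120 for HNRNPK, through 102 for MALAT1, 49.1 for SFPQ, 20.3 for RBM14 and 13.1 for NEAT1, to 6.49 for PSPC1. These lengths may exceed those of the forms expressed, and capture of RNAs without a poly(A) tail was not assessed. The exon length used for NEAT1, 22767 bases, spans the long form, so its level per kilobase would be higher if most reads came from short forms.

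Other proteins found in paraspeckles moved in both directions. Of 34 such genes 33 were tested, and at 20 µg/mL against vehicle Palmul-tang had 6 that rose and 9 that fell, and Sibjeondaebo-tang 4 and 11, where edgeR called 10.5% of all genes higher and 13.3% lower in each. Among those that fell in both formulas were AKAP8L, an A-kinase anchoring protein, by 0.30 in Palmul-tang and 0.26 in Sibjeondaebo-tang on the log2 scale (edgeR adjusted p = 4.65e-05 and 0.000212), and DAZAP1, an RNA-binding protein, by 0.24 and 0.23 (edgeR adjusted p = 1.03e-05 and 1.12e-05). CIRBP, the cold-inducible RNA-binding protein, rose by 0.20 in Palmul-tang and 0.14 in Sibjeondaebo-tang, and RBMX, a splicing regulator, by 0.14 and 0.15. At 500 against 20 µg/mL Palmul-tang had 0 that rose and 2 that fell, and Sibjeondaebo-tang 1 and 2, where edgeR called 2.83% of genes higher and 2.47% lower in Palmul-tang and 3.45% higher and 2.79% lower in Sibjeondaebo-tang. The homeobox gene DLX3 fell there in both formulas, with a log2 fold change of -1.05 in Palmul-tang and -1.52 in Sibjeondaebo-tang.

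Of 24 genes of nuclear speckle proteins, the body in which MALAT1 lies, 3 rose and 6 fell in each formula at 20 µg/mL against vehicle, where edgeR called 10.5% of all genes higher and 13.3% lower. LUC7L3 and SRSF11, splicing factors with arginine-serine stretches, rose by 0.28 and 0.22 in Palmul-tang and by 0.25 and 0.22 in Sibjeondaebo-tang on the log2 scale. RNPS1, a factor of the exon junction complex, fell by 0.31 in Palmul-tang and 0.30 in Sibjeondaebo-tang, and the splicing factor U2AF2 fell by 0.19 in Palmul-tang and 0.24 in Sibjeondaebo-tang. At 500 against 20 µg/mL 0 of 24 were called in Palmul-tang, while 1, THRAP3, rose in Sibjeondaebo-tang, beside 5.3% of all genes called in Palmul-tang and 6.24% in Sibjeondaebo-tang.

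Among 18 other long noncoding RNAs, 5 rose and 2 fell in each formula at 20 µg/mL against vehicle, beside 10.5% of all genes called higher and 13.3% lower. MIAT rose by 0.58 in Palmul-tang and 0.62 in Sibjeondaebo-tang, and MEG3 by 0.30 and 0.42, on the log2 scale (edgeR adjusted p = 4.85e-05, 1.65e-05, 9.09e-06 and 5.55e-08 in this order). CYTOR and SNHG16 fell. At 500 against 20 µg/mL 0 rose, and 2 fell in Palmul-tang and 3 in Sibjeondaebo-tang, beside 2.47% of all genes called lower in Palmul-tang and 2.79% in Sibjeondaebo-tang. MIAT fell by 0.52 in Palmul-tang and 0.40 in Sibjeondaebo-tang and MEG3 fell by 0.22 and 0.28, so these RNAs, like NEAT1, were lower at 500 than at 20 µg/mL and higher at 20 than in vehicle.

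None of the listed and tested genes beside NEAT1 on chromosome 11 rose against vehicle at 20 or 500 µg/mL of the formulas. Of 12 listed neighbours 9 were tested, and at 20 µg/mL against vehicle 0 rose and 3 fell in each formula, beside 10.5% of all genes called higher and 13.3% lower. The list had a median log2 fold change of -0.12 in Palmul-tang and -0.105 in Sibjeondaebo-tang, beside 0.006 and 0.004 over all genes tested. FRMD8, whose annotated start lies at -36.2 kb from that of NEAT1, had -0.13 in Palmul-tang and -0.09 in Sibjeondaebo-tang and was not called. FAM89B, which starts 149.6 kb on, fell by 0.33 in Palmul-tang and 0.35 in Sibjeondaebo-tang (edgeR adjusted p = 2.21e-05 and 9.14e-06). CDC42EP2 and MAP3K11 also fell. At 500 against 20 µg/mL LTBP3 and FAM89B fell in both formulas, LTBP3 by 0.23 in Palmul-tang and 0.36 in Sibjeondaebo-tang, and CDC42EP2 rose in Sibjeondaebo-tang. Of all genes edgeR called 2.47% lower there in Palmul-tang, and 2.79% lower and 3.45% higher in Sibjeondaebo-tang.

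**Figure D4:**
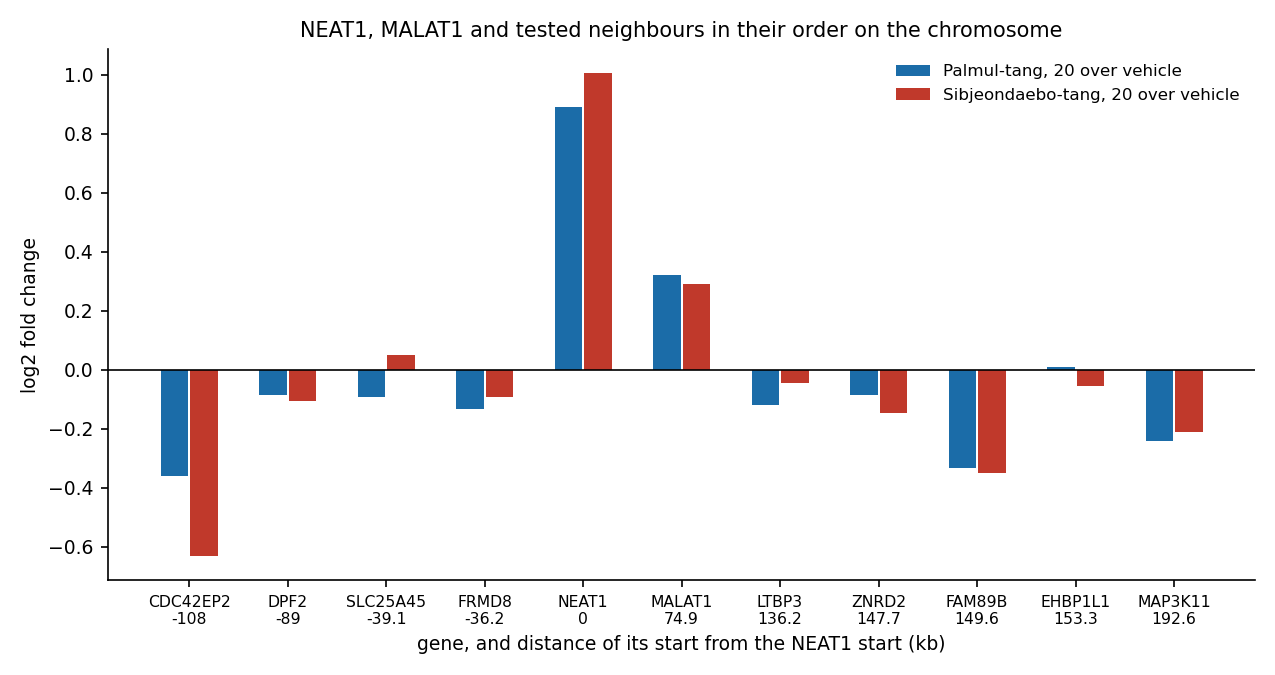
Log2 fold change of NEAT1, MALAT1 and the listed neighbours tested at 20 µg/mL over vehicle (vertical axis) in Palmul-tang (blue) and Sibjeondaebo-tang (red), with genes in chromosome order and the distance of each start from that of NEAT1 (kb) under its name. NEAT1, at 0.89 and 1.00, and MALAT1, at 0.32 and 0.29, stand above genes that are near 0 or below it.

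Genes reported elsewhere to regulate NEAT1 gave mixed values. Of 14, 2 rose and 4 fell in each formula at 20 µg/mL against vehicle, beside 10.5% of all genes called higher and 13.3% lower. RUNX1, a transcription factor, fell by 0.53 in Palmul-tang and 0.52 in Sibjeondaebo-tang on the log2 scale (edgeR adjusted p = 7.87e-12 and 8.49e-12), RELA, an NF-kappa B subunit, fell by 0.33 and 0.30, HSF1, the heat shock factor, fell by 0.23 and 0.20, and STAT3 fell by 0.15 and 0.16. BRCA1 and ATF2 rose. At 500 against 20 µg/mL Palmul-tang had 2 that rose and 0 that fell, and Sibjeondaebo-tang 3 and 1, where edgeR called 2.83% of all genes higher in Palmul-tang, and 3.45% higher and 2.79% lower in Sibjeondaebo-tang. HIF1A, the hypoxia factor, and NFKB1 rose in both formulas, HIF1A by 0.16 in Palmul-tang and 0.15 in Sibjeondaebo-tang and NFKB1 by 0.26 and 0.29. A link between these regulators and the level of NEAT1 was not tested. EPAS1, another hypoxia factor, rose by 0.17 in Sibjeondaebo-tang (edgeR adjusted p = 0.00213), and CTCF, a chromatin architecture factor, fell by 0.13 there (edgeR adjusted p = 0.043). Of 13 genes of nuclear RNA decay and export, Palmul-tang had 3 that rose and 1 that fell at 20 µg/mL against vehicle, and Sibjeondaebo-tang 2 and 1, beside 10.5% of all genes called higher and 13.3% lower. ZFC3H1 and XRN1 rose and ALYREF fell there in both formulas, and 0 were called at 500 against 20 in either.

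Of 5 genes reported elsewhere to respond to the binding of SFPQ by NEAT1, 4 were tested. At 20 µg/mL against vehicle, where NEAT1 was highest, 2 rose and 0 fell in each formula, DDX60 and RIGI in Palmul-tang and DDX60 and NICN1 in Sibjeondaebo-tang, beside 10.5% of all genes called higher. All 4 rose in both formulas at 500 µg/mL against vehicle, where edgeR called 12.9% of genes higher in Palmul-tang and 11.7% in Sibjeondaebo-tang. RIGI, an RNA sensor, rose by 0.64 in Palmul-tang and 0.62 in Sibjeondaebo-tang, DDX60, a helicase of antiviral defence, by 0.72 and 0.62, and NICN1 by 0.30 and 0.33 on the log2 scale. CXCL8, a chemokine, was higher at each higher dose of both formulas. In Palmul-tang it averaged 12 ± 0.954 CPM at 20 µg/mL, 29.5 ± 0.404 at 100 and 106.1 ± 4.20 at 500. In Sibjeondaebo-tang it averaged 11.6 ± 1.22, 32.1 ± 3.40 and 119.9 ± 12.2 CPM at these doses, against 10.9 ± 1.57 CPM in vehicle (SD, n = 3 each). In Samul-tang, Poria Cocos and Atractylodis Rhizoma at 20 µg/mL CXCL8 had 5.38, 6.25 and 4.55 CPM, below all vehicle libraries. At 500 µg/mL it had 14.7, 19.1 and 8.07 CPM in these extracts. A link between NEAT1 and CXCL8 or the other genes of this list was not tested.

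Genes whose log2 CPM was most like that of NEAT1 over the 30 libraries were sought among 10280 named genes whose log2 CPM averaged 3 or more. The Pearson r was 0.914 for WSB1, a ubiquitin ligase subunit, 0.913 for GOLGA8A, 0.907 for MAN2C1, a mannosidase, 0.901 for ZNF84 and 0.882 for NSUN5P1, a pseudogene. GOLGA8A and NSUN5P1 have near-identical copies, so their counts are uncertain. The lowest values were -0.911 for LRRC59, -0.875 for FKBP4 and -0.874 for STIP1, a pair of HSP90 co-chaperones. These r values describe 30 libraries of 1 experiment, in which vehicle and treated libraries differ, and carry no test. Over the 27 treated libraries alone, WSB1 stood at 0.847 and remained the gene with the highest r, and LRRC59 stood at -0.814. MALAT1 had r = 0.72 with NEAT1 over 30 libraries, at rank 180, and 0.511 over the 27 treated. NONO had -0.741 over 30 libraries and -0.329 over the 27 treated. RBM14 had -0.604 over 30 libraries and -0.008 over the 27 treated. Nearest to MALAT1 were TRPM7, at 0.879, CERT1, at 0.857, THOC2, at 0.849, SREK1, at 0.809, and ERCC8, at 0.808.

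**Figure D5:**
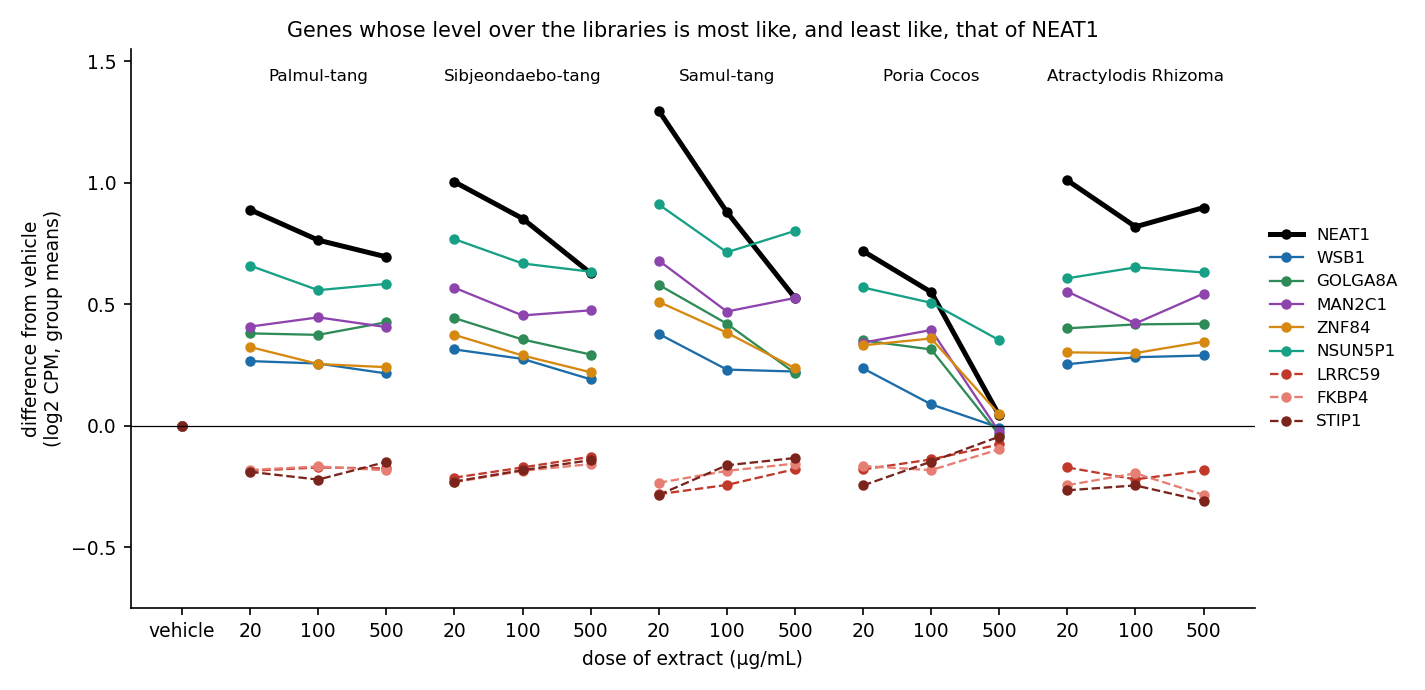
Difference of group means from vehicle (vertical axis, log2 CPM) for NEAT1 (black), the 5 genes with the highest r with it over 30 libraries (solid) and the 3 with the lowest (dashed), at each dose of each extract (µg/mL). NEAT1 and the solid lines lie above 0 in most groups, and in Poria Cocos at 500 µg/mL 4 of the 5 solid lines lie between -0.04 and 0.05.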

How the data were processed

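RNA-seq of SW1783 cells was analysed in 30 libraries. Per the labels' protocols, the MGIEasy RNA Directional kit was used, with paired-end sequencing. Per the submitters' processing notes, FastQC 0.11.9, Trim Galore 0.6.5, STAR 2.7.3a and RSEM 1.3.3 were used with hg38. The values deposited by the authors are RSEM expected counts per gene, not normalized. Annotation release and strand setting are not given in the sources used here. Of 279 columns, 249 belong to no sample used here and were left out.

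Expected counts were rounded to whole numbers. Genes were filtered with filterByExpr, scaled by TMM, and tested with the quasi-likelihood test of edgeR 4.0.16 in R 4.3.3, in 1 fit over all 30 libraries with a mean per group. Adjusted p-values are Benjamini-Hochberg values over all 17839 genes, with 0.05 as threshold. The test was checked on simulated data. The Wald test of DESeq2 1.42.0, other scalings, no filter, fits on the compared libraries alone, counts thinned to the lowest total, a replicate block and leaving out each replicate were alternatives. Names and positions come from GENCODE release 29.

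Libraries held 22.57 to 37.82 M counts, and p-values measure the spread between libraries. The members and lists were chosen with earlier results of these data known. From each list, up to 4 called genes by smallest p per comparison were named, with the chromosome 11 neighbours, CXCL8, the 5 genes of highest and the 3 of lowest r with NEAT1 and the 5 of highest r with MALAT1. NEAT1 and MALAT1 have no test where the rule used the comparison. The result of 1 gene is not reported here.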

Additional observations from a re-analysis of the deposited data

Results flagged for a closer look

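For a pair of protein genes the change between 500 and 20 µg/mL had one sign in an extract with 1 library a dose and the other sign in all 3 Palmul-tang libraries, and the difference was not tested. The log2 difference of RBM14 was 0.162 in Poria Cocos and -0.121 in Palmul-tang. For HNRNPK it was 0.083 in Samul-tang, 0.018 in Poria Cocos and 0.017 in Atractylodis Rhizoma, and -0.059 in Palmul-tang. In Sibjeondaebo-tang, the other extract with 3 libraries a dose, HNRNPK had 0.026 and RBM14 -0.025. The SD of log2 CPM of HNRNPK in Palmul-tang was 0.03 at 500 and 0.023 at 20 µg/mL (n = 3 each).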

How the results depend on the processing

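NEAT1 kept its direction in all comparisons with vehicle and between 500 and 20 µg/mL under all alternatives run. Leaving out 1 library at a time, its log2 fold change at 500 against 20 µg/mL ran from -0.22 to -0.17 in Palmul-tang and from -0.41 to -0.35 in Sibjeondaebo-tang. With no filter on low counts, the genes called numbered 51 in Palmul-tang and 63 in Sibjeondaebo-tang at 100 against 20 µg/mL, beside 29 in Palmul-tang and 37 in Sibjeondaebo-tang with the filter. Between the formulas they then numbered 9 at 500 µg/mL, 7 at 100 and 3 at 20, and 12 for the difference of changes, beside 0 in each with the filter. The fit on the compared libraries alone called 636 genes in Sibjeondaebo-tang at 500 against 20 µg/mL, beside 1113, and DESeq2 called 2 between the formulas at 500. The cause was not tested. Leaving out 1 library, the counts at 100 against 20 µg/mL ran from 15 to 24 in Palmul-tang and from 17 to 40 in Sibjeondaebo-tang. Those between the formulas ran from 0 to 2 at 100 µg/mL, where Sibjeondaebo-tang replicate 1 at that dose gave the 2, and from 0 to 1 at 500 and for the difference of changes, where Sibjeondaebo-tang replicate 3 at 500 gave the 1.

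Among tested values of the 7 genes, the sign changed under an alternative 41 times, in 20 results, none of them called in either fit and all within 0.051 of 0 in both. On the log2 scale PSPC1 in Sibjeondaebo-tang at 20 µg/mL against vehicle, -0.004, became 0.009 with upper quartile scaling, 0.006 with no filter, 0.004 in the compared libraries alone, 0.001 with the replicate block and 0.008 with thinned counts. With thinned counts NONO in Sibjeondaebo-tang became -0.006 at 500 and -0.001 at 100 against 20 µg/mL, and PSPC1 between the formulas at 500 became -0.029, or 0 in the compared libraries alone. SFPQ between the formulas at 500 became 0.003 with no filter. Leaving out 1 library, values in Sibjeondaebo-tang at 100 against 20 µg/mL ran from -0.014 to 0.06 for SFPQ, -0.019 to 0.016 for NONO and -0.073 to 0.015 for RBM14, and at 500 against 20 from -0.068 to 0.008 for SFPQ. In Palmul-tang at 100 against 20 µg/mL they ran from -0.031 to 0 for SFPQ, -0.032 to 0.002 for NONO and -0.021 to 0.001 for HNRNPK, and in Sibjeondaebo-tang at 20 against vehicle from -0.026 to 0.018 for PSPC1. Between the formulas they ran at 20 µg/mL from -0.075 to 0.051 for MALAT1, -0.07 to 0.004 for SFPQ, -0.024 to 0.011 for NONO and -0.026 to 0.005 for RBM14. At 100 µg/mL they ran from -0.017 to 0.034 for SFPQ, -0.008 to 0.026 for NONO, -0.048 to 0.036 for RBM14 and -0.006 to 0.039 for HNRNPK. At 500 µg/mL they ran from -0.032 to 0.013 for SFPQ and -0.04 to 0.043 for PSPC1, and for the difference of changes from -0.013 to 0.063 for SFPQ. The cause was not tested. Without a test, MALAT1 in Sibjeondaebo-tang at 500 against 20 µg/mL also crossed 0, to 0.01, without the library that stands apart.

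The replicate numbers were not taken as pairs, since only 18 of 45 correlations of deviations between treated libraries of the same number were over 0.1 (range -0.189 to 0.328). As a hint from the data, 14 of 18 libraries were closest to their own number. With the replicate block, 1061 genes were called in Palmul-tang and 1279 in Sibjeondaebo-tang at 500 against 20 µg/mL, beside 946 in Palmul-tang and 1113 in Sibjeondaebo-tang without it. With the block RBM14 was called in Palmul-tang there (log2 fold change -0.12, edgeR adjusted p = 0.0436).

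Gene counts do not separate the forms of NEAT1, and all comparisons with vehicle rest on the same 3 libraries. Plain totals in place of TMM moved the median of all genes by 0.0575 on the log2 scale.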
